A study of Mus musculus with 24 samples.

Results

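The genes described here are 39 interferon-stimulated genes of the mouse, taken by gene name from a table of read counts for 55401 genes at the maternal-fetal interface (MFI). The MFI is made up of the maternal decidua and the fetal placenta, and each library is bulk RNA from this tissue. There are 24 libraries in 8 groups of 3, from wild-type (WT) mice and from mice without C1qtnf6 (C1qtnf6-KO, or KO) at gestation days (gd) labelled gd10.5, gd14.5, gd16.5 and, latest, gd19.5. C1qtnf6 encodes CTRP6, a secreted protein of the C1q and TNF related family. The mice were of the C57BL/6 background and the KO mice were homozygous for a CRISPR-Cas9 deletion of exons of C1qtnf6, a germline change that is not limited to one cell type. The labels give no treatment, dam, litter, fetal sex or date of handling for any group. Each p-value therefore rests on the spread between libraries within groups of 3, whose independence is not described. Tests between genotypes at a stage used its 6 libraries, and tests between stages used the 12 libraries of a genotype. Tests over all stages used the 24 libraries. All 39 genes passed the filter on low counts over the 24 libraries, as did 19299 of all genes, and 38 of the 39 had 18 counts or more in every library. The exception was Cxcl9, with 0 to 21 counts.

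Interferons are secreted proteins that cells release when they sense viral or other misplaced nucleic acid. Type I and type III interferons act through receptors coupled to the kinases JAK1 and TYK2, which activate transcription factors, STAT2 among them, that join IRF9 and bind the interferon-stimulated response element (ISRE) of target genes. Type II interferon, made mainly by NK cells and T cells, acts through the gamma-activated site (GAS) and drives guanylate-binding proteins, immunity-related GTPases and chemokines. At the MFI, interferon gamma from uterine NK cells is known for its part in the remodelling of maternal arteries, and a basal level of interferon-stimulated genes is thought to guard the placenta against infection.

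The libraries held 20975717 to 37383108 counts, so the limit of detection, set at 3 counts, lay between 0.078 and 0.148 CPM, the read count of a gene scaled to the size of its library. C1qtnf6 itself was measured at 64.6 to 165 CPM in the WT libraries and at 0.0341 to 2.03 CPM in the KO libraries, so that every library matched its label. Y-linked genes exceeded 10 CPM in 9 libraries and stayed at or below 1.69 CPM in the other 15. Markers of decidual stroma, spongiotrophoblast, trophoblast giant cells, labyrinth, NK cells and macrophages were all detected, as the label of the tissue implies, and their sums moved with stage. KO gd10.5 replicate 2 stood apart, with 11690 CPM of spongiotrophoblast markers against 690 to 828 CPM in the other KO libraries of that stage.

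The promoters of several members are shown here because the ISRE and GAS are the letters through which interferon signalling is known to reach these genes. The ISRE was searched as GAAANNGAAA on both strands and the GAS as TTCNNNGAA, which is its own reverse complement, in windows from 250 bases before to 50 bases after the annotated start (RefSeq, GRCm38.p6). In the sequences that follow, capitals mark the letters of either motif and all else is in lower case, and each is written 5′ to 3′ on the strand of its gene. Bst2 and Rsad2 were the members with the highest levels in CPM, Oas1a had the smallest p between genotypes at gd16.5, and Ifit3 and Ifit3b are close copies. Gbp7 and Gbp2 are of the same GTPase family, and Gbp3 lies between them on the chromosome. The windows are chr8:71537423-71537722 (minus strand) for Bst2, chr12:26456403-26456702 (minus) for Rsad2, chr5:120907476-120907775 (minus) for Oas1a, chr19:34583279-34583578 (plus) for Ifit3, chr19:34607707-34608006 (plus) for Ifit3b, chr3:142530086-142530385 (plus) for Gbp7 and chr3:142620413-142620712 (plus) for Gbp2.
Bst2: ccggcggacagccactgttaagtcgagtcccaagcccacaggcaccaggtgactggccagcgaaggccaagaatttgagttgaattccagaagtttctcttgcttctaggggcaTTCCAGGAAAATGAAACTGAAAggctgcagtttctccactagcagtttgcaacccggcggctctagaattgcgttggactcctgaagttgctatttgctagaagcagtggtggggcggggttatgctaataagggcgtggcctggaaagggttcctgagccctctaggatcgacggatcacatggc
Rsad2: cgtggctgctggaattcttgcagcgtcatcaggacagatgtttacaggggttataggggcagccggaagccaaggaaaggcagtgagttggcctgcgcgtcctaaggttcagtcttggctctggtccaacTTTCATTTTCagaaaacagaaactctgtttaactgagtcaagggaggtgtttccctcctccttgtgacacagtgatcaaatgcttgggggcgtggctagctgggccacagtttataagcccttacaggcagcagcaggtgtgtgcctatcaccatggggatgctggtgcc
Oas1a: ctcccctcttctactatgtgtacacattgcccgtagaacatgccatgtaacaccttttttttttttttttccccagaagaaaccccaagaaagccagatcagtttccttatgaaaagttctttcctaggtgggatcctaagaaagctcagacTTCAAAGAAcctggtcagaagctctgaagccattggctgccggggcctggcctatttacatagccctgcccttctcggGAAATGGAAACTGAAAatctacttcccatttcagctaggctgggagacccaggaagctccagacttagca
Ifit3: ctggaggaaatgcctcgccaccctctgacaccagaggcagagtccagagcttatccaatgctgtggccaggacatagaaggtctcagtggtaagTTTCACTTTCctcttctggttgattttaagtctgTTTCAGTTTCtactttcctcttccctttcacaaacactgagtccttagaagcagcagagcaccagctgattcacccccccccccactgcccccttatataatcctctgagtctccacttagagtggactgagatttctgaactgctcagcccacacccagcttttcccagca
Ifit3b: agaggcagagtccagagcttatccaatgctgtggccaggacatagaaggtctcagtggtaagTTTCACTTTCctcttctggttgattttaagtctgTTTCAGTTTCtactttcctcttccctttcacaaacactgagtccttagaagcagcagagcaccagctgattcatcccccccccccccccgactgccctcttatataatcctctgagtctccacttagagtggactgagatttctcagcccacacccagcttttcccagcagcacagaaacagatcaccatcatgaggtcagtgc
Gbp7: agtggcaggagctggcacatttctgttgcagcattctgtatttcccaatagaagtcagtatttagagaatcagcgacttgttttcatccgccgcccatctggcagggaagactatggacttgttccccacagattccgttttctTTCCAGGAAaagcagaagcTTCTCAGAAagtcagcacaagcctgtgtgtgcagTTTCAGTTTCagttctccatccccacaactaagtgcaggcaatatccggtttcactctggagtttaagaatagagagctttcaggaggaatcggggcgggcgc
Gbp2: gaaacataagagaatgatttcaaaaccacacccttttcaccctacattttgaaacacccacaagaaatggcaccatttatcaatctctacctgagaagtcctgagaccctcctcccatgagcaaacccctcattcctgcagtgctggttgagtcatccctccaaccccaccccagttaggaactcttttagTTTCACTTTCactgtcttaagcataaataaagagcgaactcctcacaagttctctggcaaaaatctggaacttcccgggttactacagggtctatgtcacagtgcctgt

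With the start of the gene as base 1 and the base before it as -1, the Ifit3 window held ISRE matches whose first bases lay at -156 and -122, and the Ifit3b window held the same pair at -188 and -154. Rsad2 and Gbp2 each had 1 match, at -120 and -59. In Oas1a, 2 overlapping ISRE matches began at -20 and -14, with a GAS match at -98. In Bst2, a GAS match at -136 ran into 2 overlapping ISRE matches at -130 and -124, and these 3 are not separate stretches of sequence. Gbp7 had an ISRE match at -53 and GAS matches at -106 and -87.

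RefSeq windows were found for 28 members, with 32 windows because some genes have several starts. The ISRE letters were present in 17 of the 32 windows (53.1%), against 3.44% of the 32851 windows of all genes, and 28.1% of the members' windows had 2 or more matches, overlapping ones included, against 0.225% of all windows. The GAS letters were present in 25% of the members' windows and in 8.3% of all windows. Oas1a, Bst2, Ifitm3, Gbp7 and Igtp had both motifs, Irf1, Ifit2 and Ifi35 had the GAS alone, and Cmpk2, Cxcl9, Ifi44, Irf7, Irf9, Oasl1, Oasl2 and Xaf1 had neither in this window. No window was at hand for Dhx58, Zbp1, Oas2, Mx1, Mx2, Usp18, Iigp1, Ifi27, Ifi27l2a, Parp14 and Rtp4. A match of letters is a description and was not tested as a binding site.

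**Figure D1:**
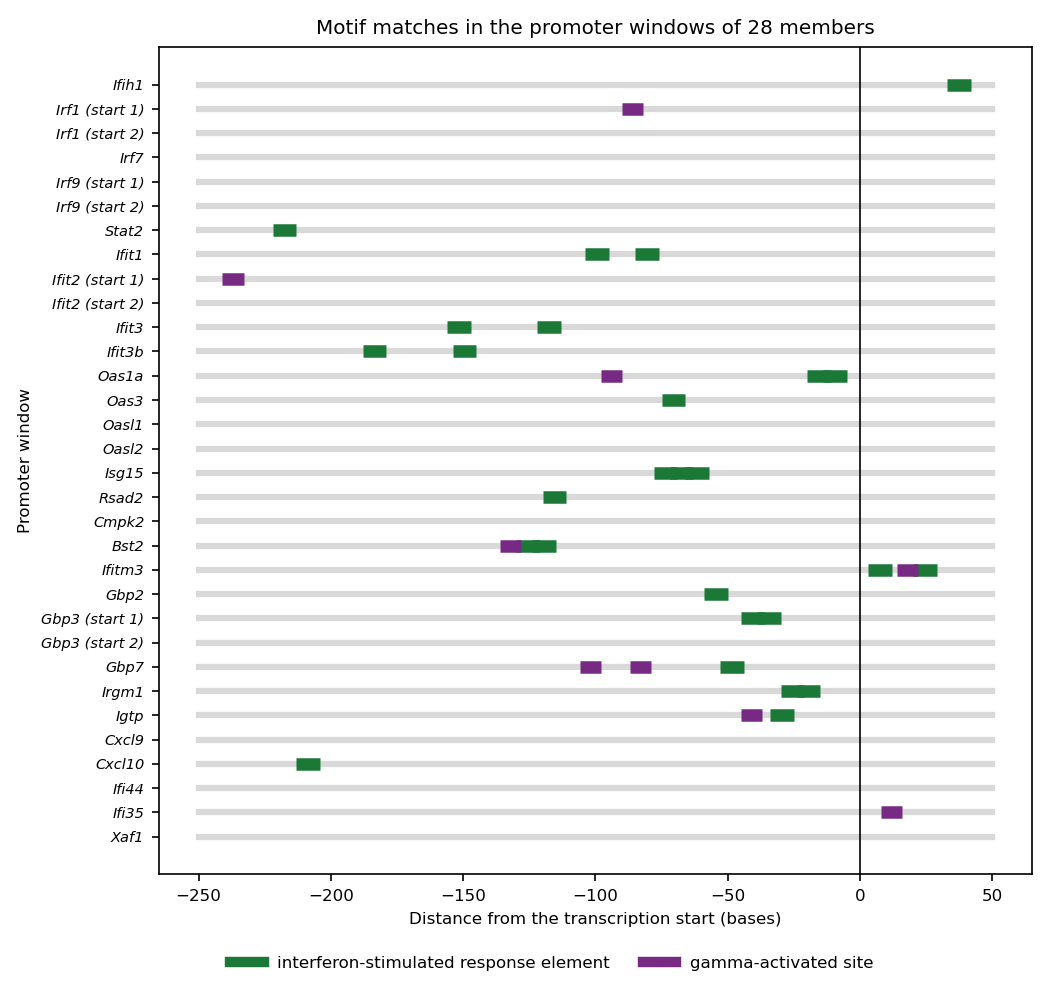
Positions of ISRE and GAS matches in the promoter windows of the members, with distance from the annotated start in bases on the x axis and 1 line per window. Of the 27 ISRE matches, 21 began within 160 bases before the start and 15 lay on the strand of the gene.

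Levels between genes are compared per kilobase of exon, as CPM per kb averaged over the 24 libraries. Bst2, which encodes tetherin, a membrane protein that holds budding virions on the cell, had the highest level of the members at 94.5 CPM per kb (48.5 to 132 over libraries). Ifitm3, a restriction factor of the endosomal membrane, followed at 49.7 CPM per kb, and Isg15, a ubiquitin-like modifier, at 43.7 CPM per kb. These are short genes of 903, 678 and 703 exon bases.

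The next in order were Rsad2, which encodes the radical-SAM enzyme viperin, at 21.5 CPM per kb, and Ifi27, a small mitochondrial protein, at 20.5 CPM per kb. Irf7, the transcription factor that amplifies type I interferon, Oas1a, a sensor of double-stranded RNA that makes the signal for RNase L, and Rtp4, a chaperone of receptors, were at 17.1, 16.8 and 16.4 CPM per kb. At the other end, the level was 1.03 CPM per kb for the chemokine Cxcl10, 0.861 for Mx2, 0.596 for Mx1, 0.394 for Oas3 and 0.083 for the chemokine Cxcl9. Mx1 and Mx2 encode dynamin-like antiviral GTPases, and C57BL/6 mice are known to carry defective alleles of both. The ratio between the highest and the lowest library was 1.67 for Irf7, the smallest of the 38 members with counts in every library, and 9.17 for Oas2, the largest.

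**Figure D2:**
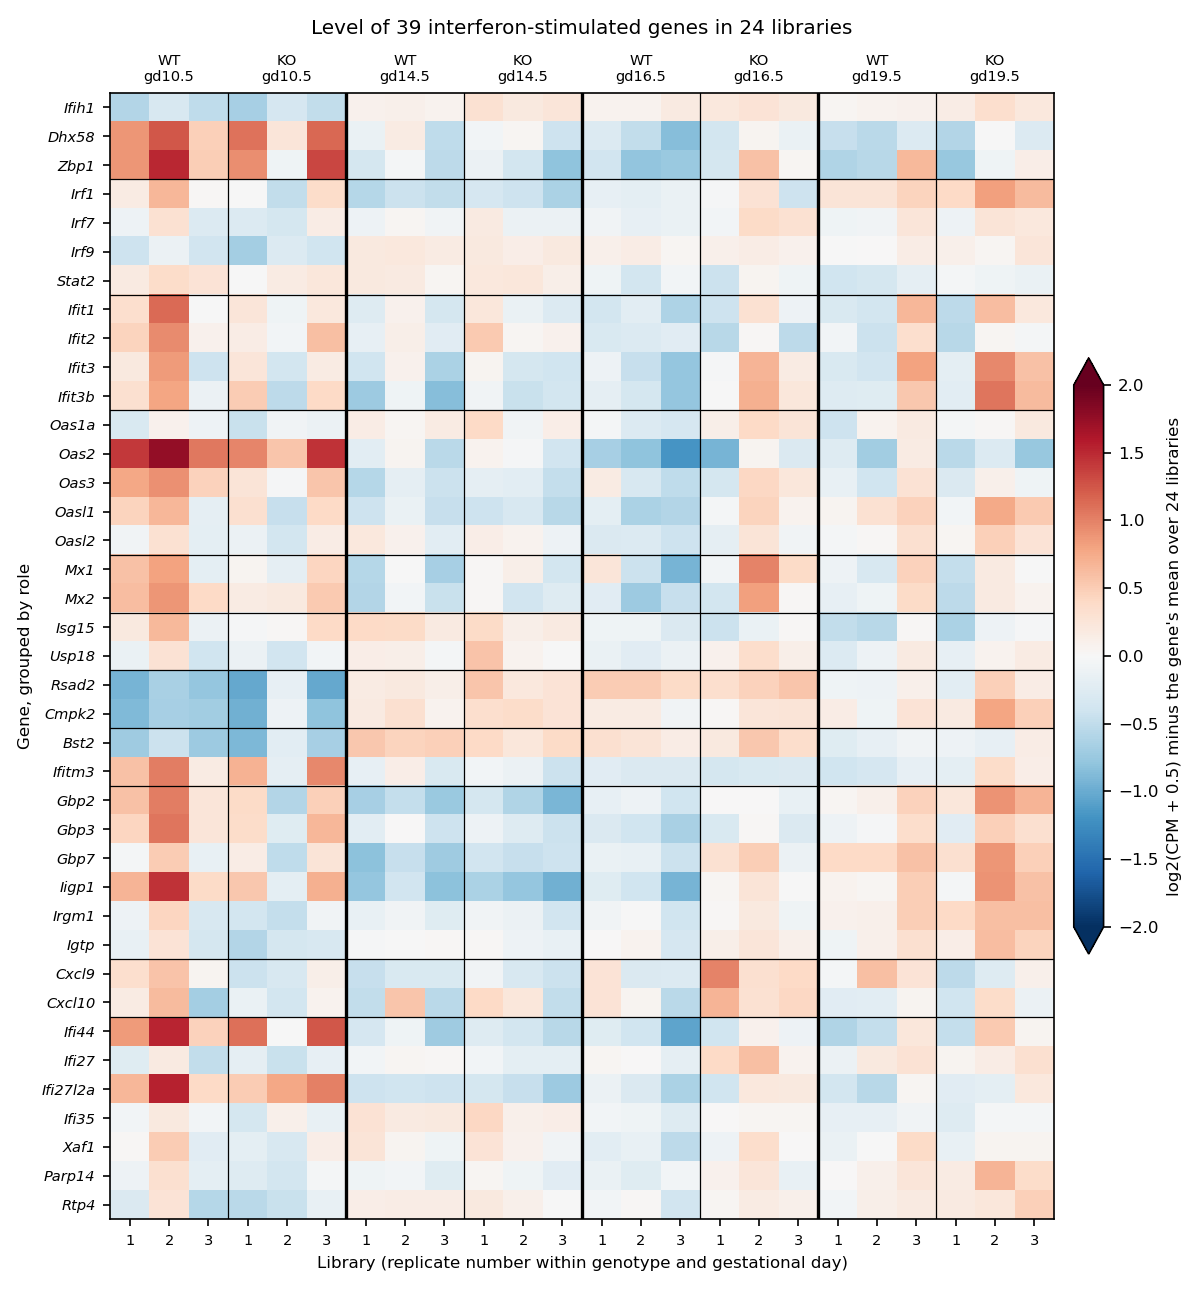
Level of each member in each of the 24 libraries, as log2(CPM + 0.5) relative to the mean of the member over all libraries, with members ordered by role and libraries by stage and genotype. Many members were high in the gd10.5 libraries of both genotypes, whereas Bst2, Rsad2, Cmpk2, Ifih1 and Irf9 were low there.

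The members often moved together between libraries of one group. In WT gd10.5, replicate 2 had the highest level of the 3 libraries for 39 of 39 members, against 37.5% of all genes, with a median deviation from the group mean of 0.38 on the log2 scale. WT gd19.5 replicate 3 was the highest for 38 members, against 32.8% of all genes, and KO gd19.5 replicate 1 was the lowest for 35, against 32.2%. In KO gd14.5 replicate 1 was the highest for 34 members, against 33.2% of all genes. In KO gd16.5 replicate 2 was the highest for 32, against 35.9%. These shared shifts within groups had a pooled SD of 0.212 on the log2 scale for the median member. The members are thus not separate replicates of any comparison, and counts of members that lie on one side are given as descriptions.

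The first question of the design was how these genes changed through gestation in WT mice. Between gd10.5 and gd14.5, 24 of the 39 members changed at an adjusted p under 0.05 (edgeR quasi-likelihood test), of which 19 fell and 5 rose. With a log2 fold change beyond 1 as well, the rule for a call here, 12 members were called lower and 1 was called higher. Of all genes tested, 11.6% were called lower and 10.7% higher, and 28.3% fell and 27.7% rose at the adjusted p. The median log2 fold change was -0.62 for the members and -0.00796 for all genes. Without WT gd10.5 replicate 2 the members' median was -0.244 and 10 members were called.

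Among the double-stranded RNA sensors of the OAS family, Oas2 was measured in WT gd10.5 at 16.45, 21.1 and 12.7 CPM in replicates 1 to 3 and in WT gd14.5 at 5.03, 6.13 and 3.87 CPM. Every gd14.5 library lay below every gd10.5 library, and Oas2 fell by 1.75 on the log2 scale (SE 0.25, adjusted p = 6.28e-05). Oas3 and the OAS-like gene Oasl1 also fell, by 1.32 (adjusted p = 0.000614) and 0.76 (adjusted p = 0.00833). Oasl2 and Oas1a, of the same family, had log2 fold changes of -0.01 and 0.20 and did not pass the test (adjusted p = 0.968 and 0.258).

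Iigp1, an immunity-related GTPase that acts on the vacuoles of intracellular pathogens, was at 25.7, 44.1 and 20.9 CPM in WT gd10.5 and at 9.04, 12.1 and 8.72 CPM in WT gd14.5. These groups did not overlap either, and Iigp1 fell by 1.62 on the log2 scale (SE 0.26, adjusted p = 0.000165). The guanylate-binding proteins Gbp2, Gbp3 and Gbp7, GTPases of the same defence, fell by 1.32, 0.87 and 0.83 on the log2 scale. The other immunity-related GTPases, Irgm1 and Igtp, had log2 fold changes of -0.20 and 0.03 and did not pass the test (adjusted p = 0.333 and 0.905).

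Of the cytosolic sensors, Zbp1, which detects Z-form nucleic acid, fell by 1.40 and Dhx58 (LGP2), a regulator of the RIG-I-like receptors, fell by 1.11 on the log2 scale. Ifih1 (MDA5), the sensor of long double-stranded RNA, rose. It was at 35.0, 42.1 and 37.1 CPM in WT gd10.5 and at 56.2, 56.5 and 55.5 CPM in WT gd14.5, with a log2 fold change of 0.54 (SE 0.07, adjusted p = 2.53e-05). The 3 sensors thus did not share a direction.

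Ifi44, a cytosolic protein of little-known function, was at 33.0, 52.7 and 25.1 CPM in WT gd10.5 and at 14.3, 16.9 and 10.9 CPM in WT gd14.5, and fell by 1.41 on the log2 scale (SE 0.30, adjusted p = 0.00129). Ifi27l2a, a relative of Ifi27, was at 5.63, 10.8 and 4.64 CPM and then at 2.41, 2.46 and 2.43 CPM, and fell by 1.56 (SE 0.29, adjusted p = 0.000501). The gd14.5 libraries lay below the gd10.5 libraries for both genes. Ifi27, Ifi35, Xaf1, Parp14 and Rtp4 had log2 fold changes from -0.17 to 0.28 and did not pass the test.

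The antiviral GTPases Mx1 and Mx2 fell by 1.06 (adjusted p = 0.0362) and 1.16 (adjusted p = 0.00091) on the log2 scale. Of the IFIT proteins, which bind viral RNA, Ifit3b fell by 1.01, Ifit1 by 0.76 and Ifit2 by 0.65, and Ifit3 had a log2 fold change of -0.62 (adjusted p = 0.154). Ifitm3 fell by 0.77 and the transcription factor Irf1, a target of interferon gamma, by 0.85. Cxcl9, a chemokine induced by interferon gamma, was at 0.415, 0.567 and 0.249 CPM in WT gd10.5 and at 0.0267, 0.084 and 0.0851 CPM in WT gd14.5. The gd14.5 libraries held 1, 3 and 2 counts, at or under the limit of detection, so its fitted log2 fold change of -2.69 (adjusted p = 0.00338) depends on the prior count of the fit and is no bound.

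The 5 genes that rose were of several roles. Bst2 was at 49.6, 60.7 and 49.1 CPM in WT gd10.5 and at 119, 111 and 114 CPM in WT gd14.5, and it was the only member called higher, with a log2 fold change of 1.09 (SE 0.09, adjusted p = 5.05e-07). Rsad2 was at 46.2, 56.4 and 51.5 CPM and then at 98.9, 101 and 95.3 CPM, with a log2 fold change of 0.92 (SE 0.09, adjusted p = 1.75e-06). For both genes the gd14.5 libraries were all above the gd10.5 libraries. Cmpk2, a nucleotide kinase of mitochondria whose gene neighbours Rsad2, rose by 0.94 on the log2 scale, and Irf9, the DNA-binding part of the complex at the ISRE, by 0.47. Among the members that did not pass the test were Isg15 (log2 fold change 0.02, adjusted p = 0.93), Usp18, the protease that removes ISG15 (0.11), Irf7 (-0.05), Stat2 (-0.16) and Cxcl10 (-0.27).

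In KO mice, where Cxcl9 fell under the filter, 18 of the 38 tested members changed between gd10.5 and gd14.5 at the adjusted p, with 9 lower and 9 higher, against 24.1% and 22.1% of all genes. Of these, 6 were called lower and 1 was called higher, against 10.2% and 8.53% of all genes. The 6 called lower (Oas2, Iigp1, Ifi27l2a, Ifi44, Zbp1 and Dhx58) were all among the 12 called in WT, and the 9 that fell were all among the 19 of WT. The 5 genes that rose in WT also rose in KO, where Oas1a, Igtp, Ifi35 and Rtp4 rose as well. The median log2 fold change of the members in KO was 0.0065, against -0.0021 for all genes, with 19 positive and 19 negative. The members as a set thus did not fall in KO, whereas in WT 12 were positive and 27 negative. The 2 contrasts share no library.

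Ifi27l2a had the largest fall in KO, from 5.01, 6.14 and 7.35 CPM to 2.56, 2.34 and 1.84 CPM, a log2 fold change of -1.46 (SE 0.23, adjusted p = 0.000743). Ifi44 was at 39.5, 18.1 and 43.5 CPM and then at 14.96, 13.8 and 12.1 CPM, with a log2 fold change of -1.31 (SE 0.32, adjusted p = 0.0061). Zbp1 was at 15.04, 7.18 and 20.1 CPM and then at 7.01, 5.80 and 4.15 CPM, with a log2 fold change of -1.33 (SE 0.38, adjusted p = 0.0152). None of these 3 genes overlapped between stages, although KO gd10.5 replicate 2 came close to the gd14.5 libraries for Ifi44 and Zbp1.

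Iigp1 in KO went from 23.2, 13.8 and 26.4 CPM to 10.1, 9.10 and 7.87 CPM (log2 fold change -1.24, SE 0.26, adjusted p = 0.00302). Oas2 went from 12.1, 8.91 and 16.8 CPM to 6.15, 5.77 and 4.38 CPM (log2 fold change -1.22, SE 0.29, adjusted p = 0.00559). Rsad2 was the member called higher, at 43.2, 78.7 and 43.4 CPM in KO gd10.5 and 130, 102 and 106 CPM in KO gd14.5 (log2 fold change 1.03, SE 0.23, adjusted p = 0.00445). In each case the groups stayed apart. KO gd10.5 replicate 2 was the lowest of its group for 25 members, against 37.4% of all genes. It was the highest for 7, Rsad2 among them, against 42.9%. Without this library 11 members were called in place of 7. Without KO gd10.5 replicate 3, 3 were called and 11 passed the adjusted p.

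**Figure D3:**
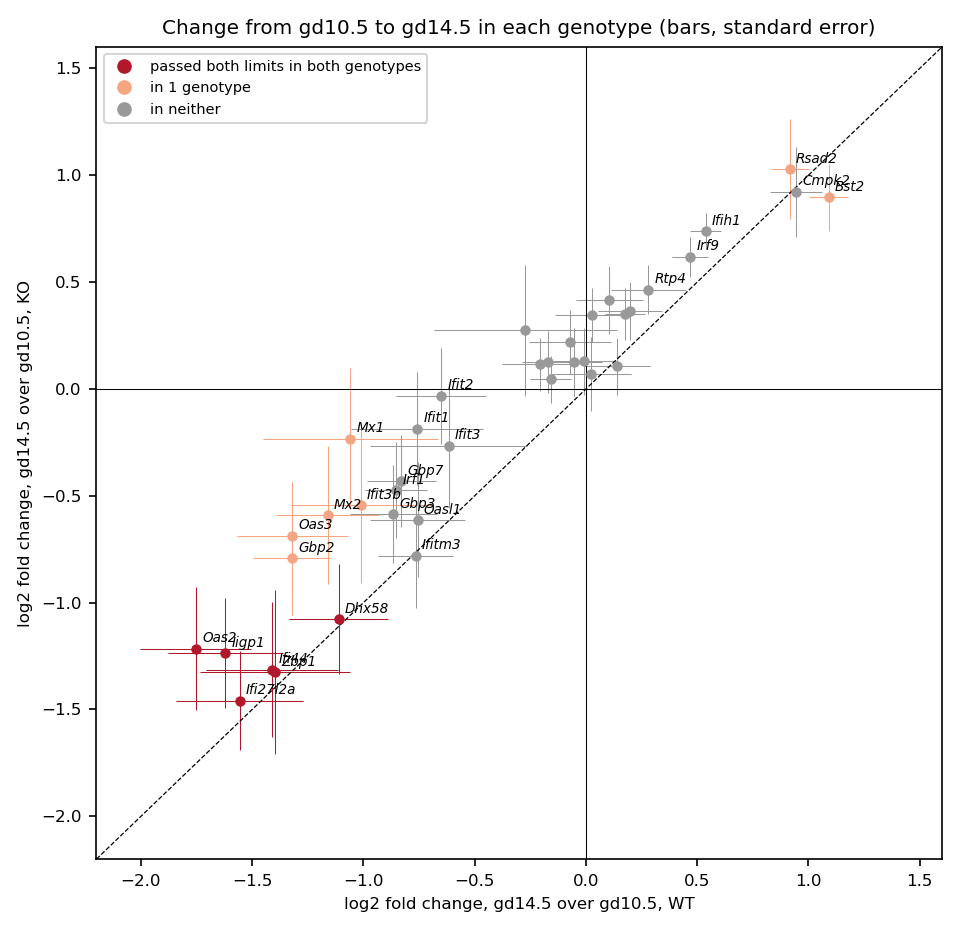
Log2 fold change of each tested member between gd14.5 and gd10.5 in WT (x axis) and in KO (y axis), as fitted by edgeR, with bars for the standard error, dark red for the 6 members called in both, pale red for those called in 1 and a dashed line of equal change. Cxcl9 was tested in WT alone and is not drawn. Oas2, Iigp1, Ifi27l2a, Ifi44 and Zbp1 lie low on both axes, and Bst2, Rsad2 and Cmpk2 lie high on both.

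The cell makeup of the tissue moved over the same interval. The summed level of NK cell markers went from 411 to 630 CPM in WT gd10.5 to 66.9 to 108 CPM in WT gd14.5, and from 243 to 623 CPM to 45.4 to 123 CPM in KO. Decidual stroma markers went from 5805 to 13370 CPM to 2718 to 3012 CPM in WT. In KO these sums overlapped between the stages, at 2344 to 11270 CPM in gd10.5 and 2660 to 3279 CPM in gd14.5. Spongiotrophoblast markers in WT rose from 1262 to 1830 CPM to 29680 to 31870 CPM. In bulk tissue, fewer cells of a type and less RNA per cell cannot be told apart, and the part of these shifts in the members' changes was not tested.

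After gd14.5 few members passed the adjusted p. In WT between gd14.5 and gd16.5, 0 members were called in either direction, against 3.04% of all genes called higher and 2.55% called lower. At the adjusted p alone, Rsad2 rose by 0.34 on the log2 scale (adjusted p = 0.0123), and Ifi35 and Stat2 fell by 0.34 (adjusted p = 0.0158) and 0.28 (adjusted p = 0.0435), against 12.5% and 9.91% of all genes higher and lower. An unadjusted p under 0.05 was found for 10 of 39 members, against 35.1% of all genes. The members' median log2 fold change was -0.12, against -0.0113 for all genes, with 14 positive and 25 negative. Between gd16.5 and gd19.5 in WT, 0 members were called, against 1.20% of all genes called higher and 0.939% called lower. Here 13 of 39 members had an unadjusted p under 0.05, 11 higher and 2 lower, against 24% of all genes. The log2 fold change was positive for 31 of 39 members, or 25 without WT gd19.5 replicate 3, against 48.5% of all genes. Its median was 0.27 for the members and -0.0089 for all genes. At the adjusted p, Gbp7 rose by 0.72, Oasl1 by 0.82 and Irf1 by 0.51 on the log2 scale, and Rsad2 and Bst2 fell by 0.48 and 0.39, against 3.16% of all genes higher and 4.81% lower. With any 1 library left out, 2 or 3 members passed the adjusted p here and 1 to 3 between gd14.5 and gd16.5. The number at the unadjusted p was 4 without WT gd14.5 replicate 1 between gd14.5 and gd16.5, and between gd16.5 and gd19.5 it was 6 without WT gd19.5 replicate 3 and 8 without WT gd16.5 replicate 3. Rsad2 thus reached 126, 126 and 115 CPM in WT gd16.5 and was at 82.9, 82.2 and 95.2 CPM in WT gd19.5, with no overlap of the groups.

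In KO between gd14.5 and gd16.5, 0 members were called, against 4.78% of all genes higher and 2.76% lower. At the adjusted p, Ifi27, Iigp1 and Gbp7 rose by 0.54, 0.94 and 0.70 on the log2 scale and 0 members fell, against 9.37% and 8.10% of all genes. An unadjusted p under 0.05 was found for 8 of 38 members, against 32.4% of all genes. The log2 fold change was positive for 29 of 38 members, or 22 without KO gd16.5 replicate 2, against 49.8% of all genes. Its median was 0.15 for the members and -0.0015 for all genes. Without KO gd14.5 replicate 2, or without KO gd14.5 replicate 3, 0 passed the adjusted p. In KO between gd16.5 and gd19.5, 0 members passed either rule. Of all genes, 0.255% were called higher, 0.439% called lower, 0.574% were higher at the adjusted p and 0.666% lower. Here 5 of 38 members had an unadjusted p under 0.05, against 18.3% of all genes, and the members' median log2 fold change was 0.03. The number of members at this unadjusted p was 3 without KO gd16.5 replicate 3 or KO gd19.5 replicate 2, and 8 without KO gd19.5 replicate 1. DESeq2 and limma-voom also called 0 members in each of these 4 contrasts.

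**Figure D4:**
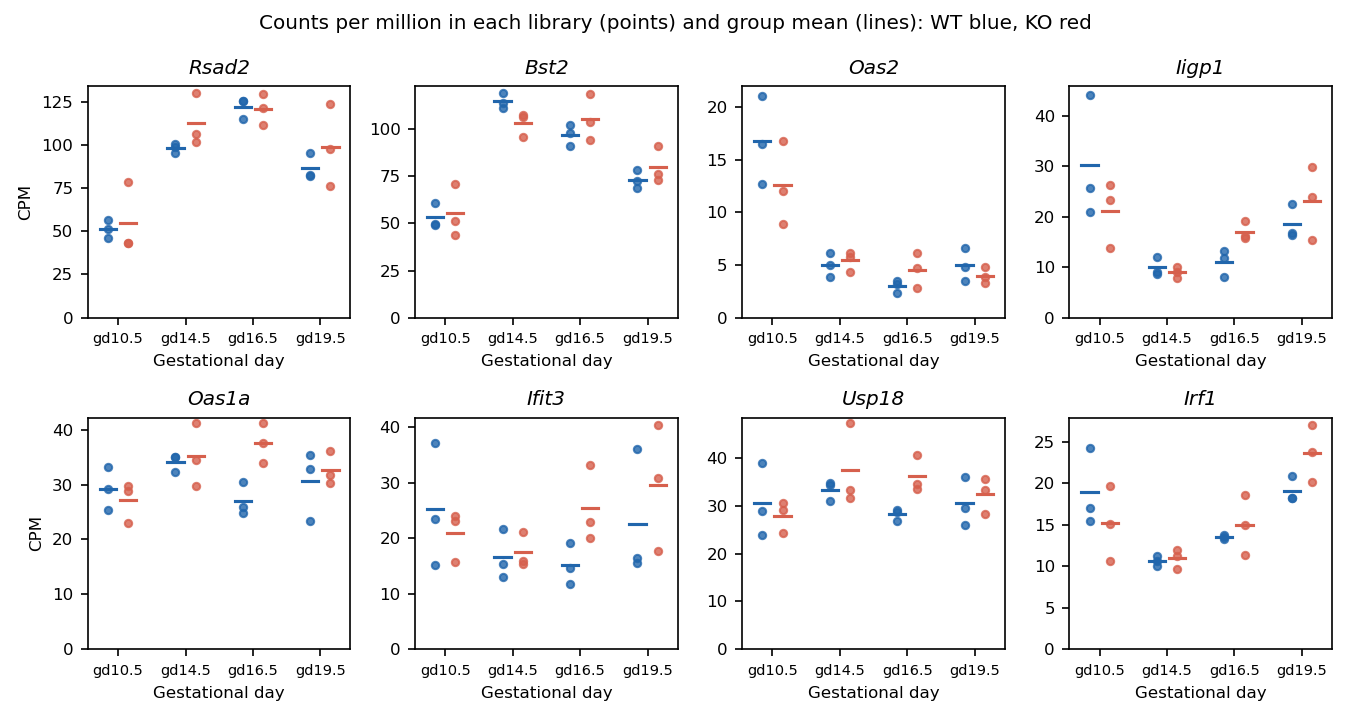
CPM of selected members in each library, by gestation day, for WT and KO, with a point for each library and a short line at the mean of each group of 3. Oas2 and Iigp1 are lower at gd14.5 than at gd10.5 and Rsad2 and Bst2 are higher, and at gd16.5 the KO points of Oas1a and Ifit3 lie above the WT points.

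The second question was whether the loss of C1qtnf6 changed these genes within a stage. No member was called between KO and WT at any stage by edgeR, DESeq2 or limma-voom. Of all 17071 genes tested at gd16.5, edgeR and limma-voom each called 1, whereas DESeq2 called 45. DESeq2 also called more genes at gd19.5, with 20 against 4 by each of the other tools. The paper, which used DESeq2, likewise found most of its changed genes at gd16.5. With calls this rare among all genes, 0 called members does not show that the members were unchanged. At each stage 38 members were tested, since Cxcl9 fell under the filter. The counts at an unadjusted p under 0.05 are given beside each result, as is the count of members whose 3 KO libraries all lay above or below the 3 WT libraries.

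At gd16.5 most members were measured higher in KO than in WT, by amounts that did not pass the adjusted test. The log2 fold change was positive for 36 of 38 members and negative for 2, with a median of 0.38 (range -0.03 to 0.99) and a median of 0.00829 for all genes. With 0 members called, against 0.00586% of all genes, 13 members had an unadjusted p under 0.05 and were higher in KO, and 0 were lower, against 5.49% and 5.60% of all genes. DESeq2 gave 15 and 0 and limma-voom 14 and 0. All 3 KO libraries lay above all 3 WT libraries for 17 of the 38 and below for 0, against 7.16% and 11.4% of all genes. Since the members move together between libraries, 13 members are not 13 separate results. The KO and WT libraries here are the same ones used for the changes with stage.

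Among the OAS genes, Oas1a was at 30.5, 25.8 and 24.8 CPM in WT and at 34.0, 41.3 and 37.6 CPM in KO at gd16.5. The groups did not overlap, and the log2 fold change was 0.50 (SE 0.11, adjusted p = 0.36). It was the only member with an adjusted p under 0.05 by DESeq2 (log2 fold change 0.50, adjusted p = 0.0248), and over all settings tried its adjusted p ran from 0.0248 to 0.796. Oasl1 was at 5.30, 3.82 and 3.96 CPM in WT and at 5.95, 8.53 and 6.52 CPM in KO (log2 fold change 0.71, SE 0.20, adjusted p = 0.408). Oasl2 was also apart between groups, with a log2 fold change of 0.37, whereas Oas2 (0.64) and Oas3 (0.42) overlapped.

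The IFIT genes did not move alike. Ifit3 was at 19.1, 14.7 and 11.8 CPM in WT and at 20.03, 33.2 and 23.0 CPM in KO (log2 fold change 0.77, SE 0.23, adjusted p = 0.418), and Ifit3b at 4.18, 3.65 and 2.59 CPM in WT and at 4.77, 8.13 and 5.67 CPM in KO (log2 fold change 0.86, SE 0.25, adjusted p = 0.414). Both groups were apart, though KO replicate 1 of Ifit3 exceeded WT replicate 1 by less than 1 CPM. Ifit1 overlapped, with a log2 fold change of 0.38, and Ifit2 was at -0.03.

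Usp18 was at 28.8, 26.9 and 29.1 CPM in WT and at 33.6, 40.7 and 34.5 CPM in KO (log2 fold change 0.39, SE 0.09, adjusted p = 0.363), while its substrate Isg15 had a log2 fold change of 0.01. Iigp1 was at 13.3, 11.9 and 8.12 CPM in WT and at 16.2, 19.1 and 15.8 CPM in KO (log2 fold change 0.65, SE 0.18, adjusted p = 0.408). Neither Usp18 nor Iigp1 overlapped between groups. Of the other GTPases, Gbp7 (0.52) and Igtp (0.27) were apart between groups and Gbp2 (0.20), Gbp3 (0.28) and Irgm1 (0.23) overlapped.

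The remaining genes with groups apart at gd16.5 were the sensors Ifih1 (log2 fold change 0.15) and Zbp1 (0.86), the transcription factor Irf7 (0.38), the chemokine Cxcl10 (0.61), and Ifi27 (0.44), Ifi35 (0.19), Xaf1, a regulator of apoptosis (0.42), and Rtp4 (0.26). Cxcl9, which was not tested at this stage, was at 0.373, 0.0879 and 0.0978 CPM in WT and at 0.935, 0.399 and 0.45 CPM in KO. Mx1 and Mx2 had the largest log2 fold changes, 0.99 and 0.87, on low counts and with overlap. Several abundant members had log2 fold changes near 0. Rsad2 was at 126, 126 and 115 CPM in WT and 111, 121 and 129 CPM in KO, and Ifitm3, Irf9 and Stat2 had log2 fold changes of -0.01, 0.04 and 0.05.

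Without WT replicate 3, 9 members were higher in KO at an unadjusted p under 0.05 at gd16.5 (median log2 fold change 0.28). Without KO replicate 2, 10 were higher and 1 was lower (median 0.23). With the level of Y-linked genes as a covariate, 11 were higher. The number higher was 18 without WT replicate 1, 17 without KO replicate 1 and 21 with no filter on low counts. KO replicate 2, the highest of its group for 32 members, had Y-linked genes above 10 CPM, as did KO replicate 1 and WT replicate 1.

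Markers of other cells also differed between the gd16.5 groups. The KO libraries had more spongiotrophoblast markers (45710 to 49550 CPM against 27500 to 38200 CPM in WT) and more giant cell markers (17660 to 19740 CPM against 11440 to 15890 CPM), and neither sum overlapped between the groups. Labyrinth markers were lower in KO, at 93.2 to 192 CPM against 206.5 to 277 CPM. The sum of NK cell markers was lower too, at 8.29 to 12.6 CPM against 22.3 to 40.2 CPM, but most of it was Prf1, with means of 7.92 CPM in KO and 28.8 CPM in WT. Klrk1 (0.373 against 0.289 CPM), Gzma (0.22 against 0.151 CPM), Ncr1 and Klrb1c had higher means in KO, all at 0.373 CPM or less. Klrd1 and Eomes, of the same list, fell from gd14.5 to gd16.5 by 2.40 and 1.92 on the log2 scale in KO. In WT these 2 genes fell by 1.10 and 1.36. The sum of macrophage markers overlapped (910 to 1054 CPM against 875 to 1257 CPM), with most of it from Csf1r and Cd68, while Adgre1 (7.10 against 3.88 CPM), C1qa (10.3 against 6.49 CPM) and C1qb (12.5 against 7.79 CPM) had higher means in KO. The sum of neutrophil markers, mostly Cxcr2, overlapped as well, while S100a9 (4.41 against 2.13 CPM) and Retnlg (0.846 against 0.246 CPM) had higher means in KO. Markers of plasmacytoid dendritic cells summed to 1.04 to 1.54 CPM in KO and 0.587 to 0.994 CPM in WT, a difference made mostly by Ly6d (0.767 against 0.301 CPM), while Siglech and Cox6a2, of the same list, had lower means in KO. The part of these cell types in the members' levels was not tested.

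**Figure D5:**
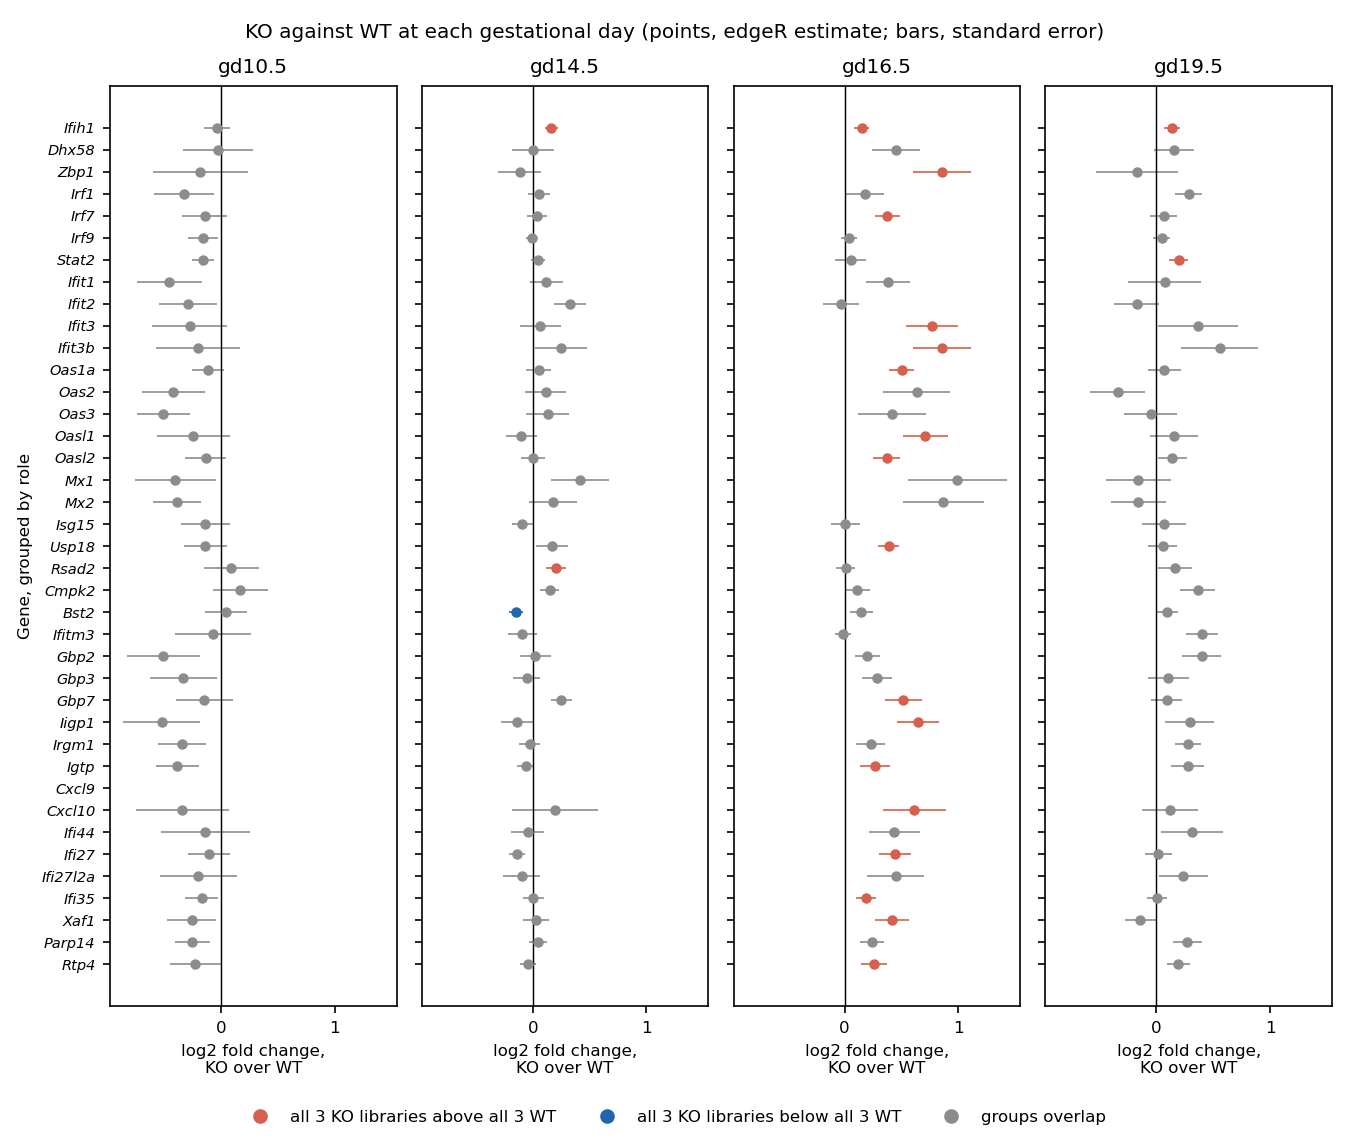
Log2 fold change of each member between KO and WT at each of the 4 stages, on the x axis, as fitted by edgeR, with members in rows by role, bars for the standard error and colour for groups that do not overlap. At gd16.5, 36 of 38 lie above 0, with 17 coloured, and at gd10.5 35 of 38 lie below it, with none coloured.

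At gd10.5 the members leaned the other way, with 35 of 38 log2 fold changes negative and 3 positive and a median of -0.20 (range -0.52 to 0.17). No group was apart, since 0 members lay above and 0 below, against 2.34% and 1.91% of all genes. With 0 members called, against 0.00572% of all genes, 0 had an unadjusted p under 0.05 in either direction by edgeR, against 0.338% and 0.463%, with 0 by DESeq2 and 2, both lower, by limma-voom. By edgeR 3 were lower without WT replicate 3, 3 without KO replicate 3 and 4 with 1 fit of all 24 libraries. Iigp1, at 25.7, 44.1 and 20.9 CPM in WT and 23.2, 13.8 and 26.4 CPM in KO, had the lowest log2 fold change at -0.52 (SE 0.34, adjusted p = 1), and its groups overlapped. Without WT gd10.5 replicate 2, the library highest for all members, the median was -0.0001, and without WT gd10.5 replicate 3 it was -0.39.

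At gd14.5 the members had a median log2 fold change of 0.03 between genotypes, with 24 of 38 positive, or 14 without WT replicate 3 and 11 without KO replicate 1. With 0 called, against 0.0166% of all genes, 4 were higher and 1 was lower at an unadjusted p under 0.05, against 3.30% and 3.48% of all genes, and DESeq2 gave 4 and 0 and limma-voom 4 and 2. All KO libraries were above all WT libraries for 2 members and below for 1, against 5.33% and 7.20%. Ifih1 was at 56.2, 56.5 and 55.5 CPM in WT and at 64.9, 60.1 and 62.7 CPM in KO (log2 fold change 0.17, SE 0.05, adjusted p = 0.693). Rsad2, at 98.9, 101 and 95.3 CPM in WT and 130, 102 and 106 CPM in KO, had a log2 fold change of 0.21 (adjusted p = 0.728), and Bst2, at 119, 111 and 114 CPM in WT and 108, 96.1 and 106 CPM in KO, was the gene below (log2 fold change -0.14, adjusted p = 0.73). The number higher at the unadjusted p was 1 without WT replicate 1, WT replicate 3 or KO replicate 1, and 7 without WT replicate 2.

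At gd19.5 the median log2 fold change was 0.13 and 31 of 38 were positive. With 0 called, against 0.0230% of all genes, 6 members were higher and 0 lower at an unadjusted p under 0.05, against 6.46% and 7.08% of all genes, with 7 and 0 by DESeq2 and by limma-voom. These were Ifitm3 (0.40), Gbp2 (0.40), Cmpk2 (0.36), Irf1 (0.28), Irgm1 (0.28) and Stat2 (0.20). All KO libraries were above all WT libraries for 2 members and below for 0, against 13.0% and 8.40%. Stat2, which joins IRF9 in the complex at the ISRE, was at 42.6, 44.2 and 50.1 CPM in WT and at 54.8, 53.5 and 51.6 CPM in KO (SE 0.08, adjusted p = 0.337), and Ifih1 was the other. The number higher at an unadjusted p under 0.05 was 0 without KO replicate 2, 1 without WT replicate 1 or WT replicate 2, and 2 without KO replicate 3 or with the Y-linked covariate. It was 14 without WT replicate 3 and 13 without KO replicate 1, and 14 with no filter on low counts. At the same p, 1 member was lower without WT replicate 2 and 2 were lower with no filter on low counts. Beside these values, the sum of macrophage markers was higher in KO, at 960 to 986 CPM against 799 to 904 CPM, and the sums of NK cell markers (7.005 to 11.27 CPM against 11.35 to 15.02 CPM) and decidual stroma markers (2130 to 2498 CPM against 2661 to 3904 CPM) were lower, and their part in the result was not tested.

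Over all 4 stages together, with stage as a covariate, 33 of 39 log2 fold changes were positive, with a median of 0.07. With 0 called, against 0.0104% of all genes, 2 members were higher and 0 lower at an unadjusted p under 0.05, against 3.54% and 2.79%, with 2 and 0 by DESeq2 and 5 and 0 by limma-voom. These were Ifih1 (log2 fold change 0.11, adjusted p = 0.719) and Cmpk2 (0.20, adjusted p = 0.733). The difference between the stages in the effect of genotype, tested as an interaction, passed the adjusted p for 0 members, against 0% of all genes, and the unadjusted p for 6, against 7.23% of all genes. The smallest interaction p belonged to Cxcl9 (adjusted p = 0.604), and a likelihood-ratio test in DESeq2 also gave 0 members at the adjusted p. The opposite leanings of gd10.5 and gd16.5 were therefore not shown to differ.

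The other genes of the pathway were taken from lists of ligands, receptors, kinases, sensors, regulators and further induced genes. Of 21 interferon ligands, 2 had enough counts to be tested, Ifnk and Ifne. Ifnb1 had 0 to 4 counts and Ifng 0 to 3 counts per library. Ifne, a type I interferon of the reproductive tract, went from a mean of 7.55 CPM in WT gd10.5 to 1.42 CPM in WT gd14.5 (log2 fold change -2.42, adjusted p = 0.000224) and fell by 2.31 on the log2 scale in KO (adjusted p = 0.000485).

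All 6 receptor genes were tested, and 5 rose between gd10.5 and gd14.5 in WT and 5 in KO at the adjusted p. In WT the log2 fold change was 1.43 for Ifnlr1, the type III receptor chain, 0.93 for its partner Il10rb, 0.79 for Ifnar1, 0.62 for Ifnar2 and 0.39 for Ifngr1. Of the kinases bound to these receptors, Jak1 fell by 0.36 and Tyk2 by 0.22 on the log2 scale in WT, and Jak1 fell by 0.30 in KO. Of 10 further sensors and adaptors, 4 rose and 3 fell in WT, and 1 rose and 2 fell in KO. These 5 receptor genes of WT stand beside a background of 27.7% of all genes that rose, and the 5 of KO beside 22.1%. The shares of all genes that fell were 28.3% in WT and 24.1% in KO. Ifngr2 had log2 fold changes of 0.16 in WT and 0.23 in KO and did not pass the test.

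Of the negative regulators, 5 of 6 were tested and Trex1 was listed at 0. In WT 3 rose and 2 fell between gd10.5 and gd14.5, among them Samhd1, a dNTPase (by 3.00 on the log2 scale), and Socs3, an inhibitor of JAK signalling (by 1.41), and in KO 2 rose and 2 fell. Of 30 tested further induced genes that are not members, 4 rose and 14 fell in WT and 4 rose and 10 fell in KO at the adjusted p, with 9 and 6 called lower. Of all genes, 27.7% rose and 28.3% fell in WT, and 22.1% rose and 24.1% fell in KO. The shares called lower were 11.6% and 10.2%. The counts of negative regulators stand beside the same shares. Between genotypes no gene of these lists passed the adjusted p. At gd16.5, 11 of the 30 were higher and 0 lower at an unadjusted p under 0.05, against 5.49% and 5.60% of all genes, 11 had all KO libraries above all WT libraries, against 7.16%, and the median log2 fold change was 0.29. These values come from the same libraries as those of the members, with the same differences in cell markers.

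Some members share sequence with other genes, which limits the precision of their counts, because reads that map to several places were left out and both strands were counted. Ifit3 and Ifit3b are 97.8% identical over 1700 bases and Oas1a and the non-member Oas1g are 97.6% identical over 1861 bases, so values of these genes rest on the reads that tell them apart. Of the members, 13 share exon bases with another gene, 8 of them with a gene on the other strand. The shared part was 16.8% of exon bases for Ifi35 (with Gm11626), 13.9% for Rtp4 (with Gm45338), 11.3% for Gbp7 (with Gm43802) and 8.01% for Igtp (with Irgm2), and less for the others.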

How the data were processed

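The authors deposited 1 table of raw read counts per gene, in whole numbers with no normalization. By the study's methods, poly(A) RNA libraries from a stranded kit were trimmed with Trim Galore 0.6.4, aligned to GRCm38 with STAR 2.7.3a and counted with featureCounts (Subread 2.0.0) at default settings. Groups came from the labels, with KO replicate numbers from the sample descriptions. CPM used TMM factors over the 24 libraries. Differences were fitted over all genes with edgeR 4.0.16 (quasi-likelihood test, filterByExpr with a minimum count of 10 and total of 15, TMM), and adjusted p-values are Benjamini-Hochberg over all genes tested. All p-values in the report are from this model unless another tool is named. A gene was called at an adjusted p under 0.05 with a log2 fold change beyond 1. The test was checked on simulated counts. DESeq2 1.42.0 and limma 3.58.1 (voom with quality weights), other normalization and filters, 1 fit of all libraries, a replicate block, a Y-linked covariate and leaving out each library were alternatives. Genes named by rule were, per comparison, up to 5 called members with the largest absolute log2 fold change, in KO against WT up to 5 members with an unadjusted p under 0.05 and groups apart, smallest p first, and the members with the highest and lowest level per kilobase. Other single members were named after their values were seen. The members, the lists of pathway and marker genes and the tests were chosen with earlier results of these data known.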

Additional observations from a re-analysis of the deposited data

How the results depend on the processing

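Without the fold-change threshold, the members called numbered 24 in WT and 18 in KO between gd10.5 and gd14.5, 3 in WT and 3 in KO between gd14.5 and gd16.5, and 5 in WT between gd16.5 and gd19.5. In KO between gd14.5 and gd16.5, 1 member, Cxcl9, was called with no filter on low counts and 1, again Cxcl9, with 1 fit of all 24 libraries. It was under the filter in the fit reported above, and in the 4 leave-one-out settings where it was tested it was not called. With 1 library left out, the median log2 fold change in WT between gd10.5 and gd14.5 ran from -0.8463 to -0.244 and the members called in KO from 3 to 11. In KO between these stages Zbp1 had an adjusted p of 0.0663 without KO gd10.5 replicate 3 and of 0.0614 without KO gd14.5 replicate 3 (edgeR), and Oas2 passed the adjusted p but had a log2 fold change of -0.96 without KO gd10.5 replicate 3. With no filter on low counts, 7 members passed the adjusted p between genotypes at gd19.5 (Ifitm3, Gbp2, Cmpk2, Parp14, Irgm1, Ifit3 and Ifit3b) and 1 at gd14.5 (Ifit2), all with log2 fold changes under the threshold for a call. With CPM scaled within the stage, an alternative chosen after seeing the data, 1 member in place of 2 had all KO libraries above WT at gd19.5, since Stat2 overlapped. The causes were not tested. No named member reversed its direction under any alternative. Of the values recomputed, 162 medians moved by less than the spread between replicates and 3 by more, 209 counts of called members stayed within 1.5 times and 9 did not, 1 count of members with groups apart moved and 7 did not, and 252 values of named members kept their call and 3 lost it.

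Correlations of same-numbered WT and KO libraries ran from -0.572 to 0.48 over the 4 stages. They were 0.171, 0.058 and 0.22 at gd14.5, where differently numbered libraries ran from -0.284 to 0.192. At gd19.5 they were 0.157, 0.0683 and 0.198, against -0.216 to 0.0291. With 3 libraries in a group, these values cannot settle whether replicate numbers pair the libraries. With the replicate block, 13 members were called in WT and 7 in KO between gd10.5 and gd14.5 and 0 in every other contrast, and 16 members had an unadjusted p under 0.05 at gd16.5 and 9 at gd19.5. Counts were 18 or more per library for 38 members, and Cxcl9, with 0 to 21, was limited by depth.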
